A study of Mus musculus with 12 samples.

Results

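The E2F family comprised 10 genes here, the transcription factors *E2f1* to *E2f8* and their dimerization partners *Tfdp1* and *Tfdp2*. They were taken by their symbols from the 46983 genes of the expression table. All 10 had a row of their own, and all 10 were among the 18023 genes that reached 0.1 FPKM in 3 or more libraries and were tested. FPKM scales the fragment count of each gene for transcript length and library size.

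RNA was sequenced from C2C12, a line of mouse myoblasts that leaves the cell cycle and fuses into myotubes when it differentiates. The study asked how overexpression of PPARγ, the nuclear receptor that drives adipogenesis, changes the course of that differentiation. WT cells (the PB-IP group, named after the PiggyBac vector) and PPARγ/+ cells were each collected at 0d and after 5 days of differentiation (5d), which gave the 4 groups WT_0d, WT_5d, PPARγ/+_0d and PPARγ/+_5d with 3 libraries each. The PPARγ/+ cells had received the coding sequence of PPARγ in the PB-IP vector together with transposase, and were selected with puromycin. Whether that line was 1 clone or a pool, which promoter drove the insert and whether the WT cells held the empty vector are not given in the sources used here. Both kinds of cell were grown in the same medium with serum and LIF. The libraries of a group are described as biological replicates, and if they were cultures of 1 line, their p-values measure only the spread between such cultures.

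E2F proteins bind the promoters of genes needed for DNA synthesis and mitosis. E2F1, E2F2 and E2F3 activate them when cyclin-dependent kinases release the retinoblastoma protein, whereas E2F4 and E2F5 hold them silent in resting cells together with the pocket proteins p107 and p130. E2F6 represses through Polycomb proteins, and E2F7 and E2F8, the atypical members, repress late in S phase without a partner. The other E2F proteins bind DNA as heterodimers with the products of *Tfdp1* or *Tfdp2*. In muscle, leaving the cell cycle for good goes with silencing of the E2F targets.

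Several E2F genes are themselves E2F targets, so the stretches before their start sites are shown for the members whose levels differed most. RefSeq promoter windows of GRCm38.p6 were held for 8 of the 10 members, 12 windows in all, and not for *E2f4* and *E2f5*. The 250 bases before each start were searched on both strands for the E2F letters TTTGGCGC, TTTCCCGC, TTTCGCGC and TTTGCCGC, for the CHR letters TTTGAA bound by the MuvB complex, and for the E-box letters CAGCTG and CAGGTG bound by myogenic factors (the E-box after the values of *E2f2* were seen). The E2F letters stood in 4 of the 12 windows, those of *E2f3*, *E2f7* and *Tfdp1* (a single site shared by both windows of the last). They stood in 1.86% of all 32851 windows, the CHR letters in 16% and the E-box letters in 27.7%. Capitals mark these letters below, read 5′ to 3′ on the strand of the gene up to the base before the start.
*E2f7*, chr10:110745211-110745438, plus strand: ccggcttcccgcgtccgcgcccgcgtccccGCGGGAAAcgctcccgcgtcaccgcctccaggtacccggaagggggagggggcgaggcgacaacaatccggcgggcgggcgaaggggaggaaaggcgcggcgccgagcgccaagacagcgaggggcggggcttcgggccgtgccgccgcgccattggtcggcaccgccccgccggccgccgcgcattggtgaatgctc
*E2f8*, chr7:48881597-48881646, minus strand: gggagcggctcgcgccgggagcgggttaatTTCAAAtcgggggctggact
*Tfdp1*, chr8:13338678-13338750, plus strand: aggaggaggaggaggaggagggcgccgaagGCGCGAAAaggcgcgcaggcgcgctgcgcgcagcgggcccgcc
*E2f3*, chr13:29986064-29986116, minus strand: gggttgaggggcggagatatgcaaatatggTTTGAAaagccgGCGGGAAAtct
*E2f2*, the second start, chr4:136180721-136180781, plus strand: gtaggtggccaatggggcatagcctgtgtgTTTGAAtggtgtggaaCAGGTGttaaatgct

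The E2F letters of *E2f7* lay at positions −198 to −191 from its start, those of *Tfdp1* at −43 to −36 and those of *E2f3* at −11 to −4. The CHR letters lay at −20 to −15 in *E2f8*, at −23 to −18 in *E2f3* and at −31 to −26 before the second start of *E2f2*. The E-box letters lay at −15 to −10 before the second start of *E2f2*. They also lay at −170 to −165 in a window of *Tfdp2* that is not shown. None of the letters marked above shared a base with another marked motif. The windows of *E2f1*, *E2f6* and *Tfdp2*, the first start of *E2f2* and the second start of *E2f3* held neither the E2F nor the CHR letters. None of these windows is shown. Their lack says only that these exact letters are not in these bases.

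The libraries held between 18581300 and 26073154 mapped fragments (median 22305887), as recovered from the smallest steps of the FPKM values. *Pparg*, the overexpressed gene, stood between 3.12 and 7.56 FPKM in the 6 WT libraries and between 28.0 and 92.7 FPKM in the 6 PPARγ/+ libraries. The difference was 2.57 on the log2 scale on 0d and 3.85 on 5d (limma, adjusted p = 0.00148 and 0.000173). The summed FPKM of 9 myoblast and myotube markers lay between 136 and 318 in WT_0d, between 1054 and 4572 in WT_5d, between 62.6 and 99.96 in PPARγ/+_0d and between 1147 and 1353 in PPARγ/+_5d. Of 6 adipocyte markers *Lep* was at 0 in every library. Their sum lay between 30.3 and 88.5 FPKM in PPARγ/+_5d and between 6.55 and 14.2 in the other groups. *Cebpa* alone stood between 6.47 and 14.04 FPKM in the WT libraries, so the sum hides the other markers on 0d. In PPARγ/+_0d *Adipoq* stood between 1.06 and 2.46 FPKM and *Fabp4* between 1.59 and 1.9996. In WT libraries they did not exceed 0.0313 and 0.0481 FPKM. *Plin1* was also higher in PPARγ/+_0d than in any WT library, while *Cebpa* and *Cfd* overlapped. Summed markers of endothelial cells did not exceed 0.115 FPKM. Of the 2 pluripotency markers *Pou5f1* was at 0 throughout, and *Nanog* stood between 0.096 and 0.402 FPKM. Of the 3 immune markers 2 stayed under 0.1 FPKM, and *Cd68* carried the rest. Some libraries stood apart from their groups. WT_5d replicate 3 had a muscle marker sum of 1054 FPKM against 4572 and 3568, and WT_0d replicate 2 one of 318 against 177 and 136. PPARγ/+_5d replicate 3 had an adipocyte marker sum of 88.5 FPKM against 30.3 and 37.3, and *Pparg* at 92.7 FPKM against 40.1 and 44.1. Their part in the results was not tested beyond leaving each out, and values without them are given where a result moved. Among the calls of the 10 members, leaving out PPARγ/+_5d replicate 3 ended only that of *E2f2* on 5d, and leaving out WT_0d replicate 2 ended none.

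The repressors *E2f7* and *E2f8* and the partner *Tfdp1* fell from 0d to 5d in both kinds of cell. They were the only members called in either, where a call took an unadjusted p no higher than 0.05 and a change of 2-fold or more, so 3 of the 10 members fell and 0 rose in each. At an unadjusted p of 0.05 by limma and no threshold on size, 0 members were higher on 5d in WT cells and 1 in PPARγ/+ cells, *E2f2*. Lower at that p were *E2f1*, *E2f3* and *E2f6* besides the called members in WT cells, and *E2f6* besides them in PPARγ/+ cells. The shares of all genes at that p alone are not given here. By the call with 2-fold, 7.53% of all genes tested fell and 8.94% rose in WT cells, and 6.06% fell and 9.11% rose in PPARγ/+ cells. Without WT_5d replicate 3 the count in WT cells was again 3. After median-ratio scaling *Tfdp1* was no longer called in either kind of cell, and after quantile normalization not in PPARγ/+ cells. In bulk RNA, fewer cycling cells and less RNA per cell cannot be told apart.

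*E2f7* (ENSMUSG00000020185, chr10:110745439-110787384 on the plus strand of GRCm38) showed the largest change of the 10 genes. Its FPKM was 4.52, 5.69 and 6.26 in WT_0d and 0.649, 0.443 and 0.341 in WT_5d. In PPARγ/+ cells it was 4.83, 3.78 and 4.15 on 0d and 0.444, 0.397 and 0.466 on 5d. Every 5d library lay far under every 0d library, and the 5d levels of both kinds of cell overlapped. A library held 790 to 1305 fragments of *E2f7* on 0d and 70 to 149 on 5d. *E2f7* fell 9.82-fold in WT cells (log2 fold change −3.30, SE 0.24, adjusted p = 0.000321) and 8.09-fold in PPARγ/+ cells (−3.02, SE 0.14, adjusted p = 2.35e-05). Because 0.1 was added to each FPKM before the log, these folds understate the change of so low a gene. Its exons share 86 bases with *1700020G17Rik* on the other strand, and whether the counting used strand is not given in the sources used here.

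*E2f8* (ENSMUSG00000046179, chr7:48866429-48881596, minus strand), the second atypical repressor, fell by a smaller factor. WT_0d held 8.45, 12.05 and 11.998 FPKM and WT_5d held 4.44, 4.08 and 2.0004. In PPARγ/+_0d it stood at 6.50, 4.43 and 6.29 FPKM, and in PPARγ/+_5d at 2.002, 2.35 and 2.25. The days did not overlap within either kind of cell, while the highest 5d library of WT cells matched the lowest 0d library of PPARγ/+ cells. The fall was 3.16-fold in WT cells (log2 fold change −1.66, SE 0.32, adjusted p = 0.00849) and 2.51-fold in PPARγ/+ cells (−1.33, SE 0.16, adjusted p = 0.000727). Without WT_5d replicate 3, the lowest WT library, the WT value was −1.31. Exons of *Gm2788* on the other strand cover 610 bases of *E2f8*, so fragments there could belong to either gene.

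*Tfdp1* (ENSMUSG00000038482, chr8:13338751-13378448, plus strand), which encodes the more abundant partner DP1, fell by about the factor that the threshold asks for. Its FPKM was 88.7, 103 and 113 in WT_0d and 48.1, 44.5 and 47.7 in WT_5d. PPARγ/+_0d held 106, 84.2 and 89.0 FPKM, and PPARγ/+_5d held 45.5, 46.8 and 44.8. All 6 libraries of 5d lay between 44.5 and 48.1 FPKM, well under all 6 of 0d. Its log2 fold changes were −1.11 in the WT libraries (SE 0.10, adjusted p = 0.000708) and −1.02 in those of PPARγ/+ cells (SE 0.09, adjusted p = 0.000217). Median-ratio scaling of the libraries brought these to −0.98 and −0.89, under 2-fold, with the direction kept. Quantile normalization brought the PPARγ/+ value to −0.91, also under 2-fold. In PPARγ/+ cells leaving out PPARγ/+_0d replicate 1 also gave a fall short of 2-fold (−0.92).

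*Tfdp2* (ENSMUSG00000032411, chr9:96196275-96323646, plus strand), the other partner, did not pass the test in any comparison. It stood at 2.14, 1.90 and 2.20 FPKM in WT_0d and at 2.51, 2.15 and 2.23 in WT_5d. In PPARγ/+ cells the values were 2.13, 2.54 and 2.63 on 0d and 2.82, 2.42 and 2.62 on 5d. The libraries overlapped in every comparison made. The change from 0d to 5d was 0.13 on the log2 scale in WT cells (95% interval −0.18 to 0.45) and 0.11 in PPARγ/+ cells (−0.17 to 0.39). The FPKM of *Tfdp1* was 49.0 ± 6.65 times that of *Tfdp2* in WT_0d (SD, n = 3) and 20.5 ± 1.16 times in WT_5d, and it went from 39.0 ± 9.57 to 17.5 ± 1.63 times in PPARγ/+ cells. These ratios rest on the short length of *Tfdp1* behind its FPKM. Over the annotated lengths, a scale added after the data were seen, they were 22.7 ± 3.08 and 9.47 ± 0.536 in WT cells and 18.1 ± 4.43 and 8.11 ± 0.756 in PPARγ/+ cells.

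**Figure D1:**
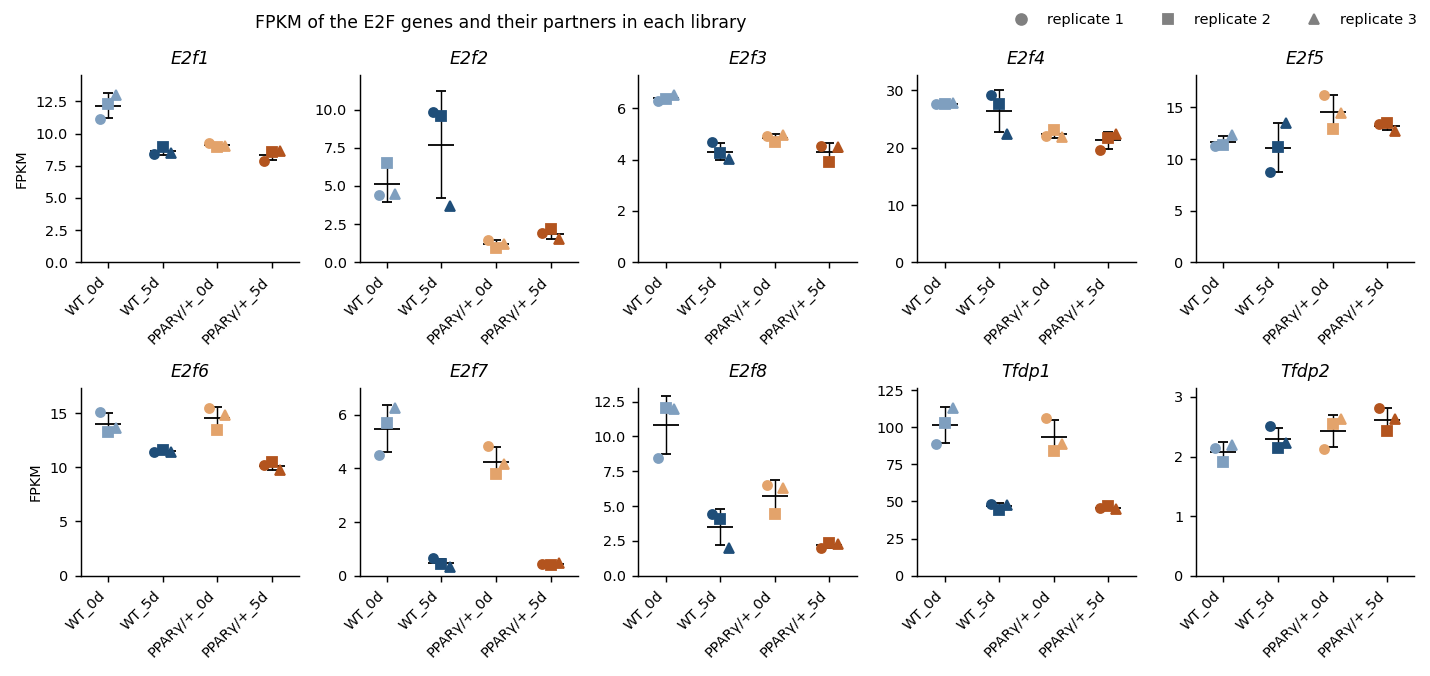
FPKM (linear axis from 0, one scale per gene) of the 10 genes in the 4 groups. Symbols are the 3 libraries of a group, the horizontal line is their mean and the bars the SD. The 5d libraries of *E2f7*, *E2f8* and *Tfdp1* lie under the 0d libraries of the same cells, and *E2f2* is lower in all 6 PPARγ/+ libraries (0.927 to 2.19 FPKM) than in any WT library (3.67 FPKM or more).

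*E2f2* (ENSMUSG00000018983, chr4:136172394-136196057, plus strand), an activator, was the one member called between the kinds of cell. It was lower in PPARγ/+ cells on both days. WT_0d held 4.39, 6.50 and 4.49 FPKM and PPARγ/+_0d held 1.48, 0.927 and 1.19. On 5d the WT libraries stood at 9.83, 9.59 and 3.67 FPKM and the PPARγ/+ libraries at 1.91, 2.19 and 1.54. No WT library was as low as any PPARγ/+ library on either day, and the fewest fragments behind a value were 118. The difference was 4.02-fold on 0d (log2 fold change −2.01, SE 0.33, adjusted p = 0.00735) and 3.63-fold on 5d (−1.86, SE 0.33, adjusted p = 0.0206). So 1 of 10 members was lower on each day and 0 were higher, where a call took an adjusted p no higher than 0.05 and 2-fold or more. Of all genes tested, 1.39% were lower and 0.571% higher in PPARγ/+ cells on 0d, and 0.533% lower and 0.571% higher on 5d. At an unadjusted p of 0.05 and no threshold on size, the only member higher in PPARγ/+ cells was *E2f5* on 0d. Lower at that p were *E2f1*, *E2f2*, *E2f3*, *E2f4* and *E2f8* on 0d, and *E2f2*, *E2f4* and *E2f6* on 5d. The shares of all genes at that p alone are not given here.

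The call on 5d depended on how the spread was estimated. With only the 6 libraries of that day in the fit, the same difference had an adjusted p of 0.164. Leaving out 1 of the other 5 libraries of 5d gave values from −1.97 to −1.62 with adjusted p-values from 0.0559 to 0.104, while without WT_5d replicate 3 it was −2.32 (adjusted p = 0.000243). On 0d the call held under every alternative tried, with adjusted p-values of at most 0.0388.

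Within each kind of cell *E2f2* did not pass the call between the days. In WT cells the change was 0.47 on the log2 scale (95% interval −0.49 to 1.43, adjusted p = 0.396), with replicates 1 and 2 of 5d above all 0d libraries and replicate 3 below them. Without replicate 3 it was 0.93 (adjusted p = 0.0171), still short of 2-fold. In PPARγ/+ cells all 3 libraries of 5d stood above those of 0d, by 0.62 on the log2 scale (SE 0.20, adjusted p = 0.0432), also short of 2-fold.

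The low *E2f2* of WT_5d replicate 3 came with the lowest level of the myogenic factor *Myog* among the WT libraries of 5d. *Myog* stood at 271, 215 and 90.0 FPKM in WT_5d and at 78.8, 85.9 and 90.3 in PPARγ/+_5d. At about the same *Myog*, WT_5d replicate 3 held 3.67 FPKM of *E2f2* and the PPARγ/+_5d libraries 1.54 to 2.19. The part of the muscle program in the difference was not tested. Across the 12 libraries r between *E2f2* and *Myog* was 0.48, and 0.50 after removal of the group means, as a description of libraries that share their groups.

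**Figure D2:**
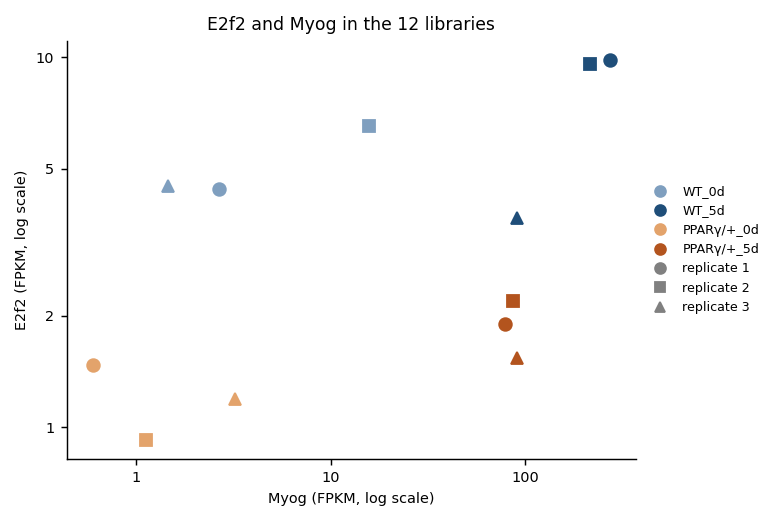
*E2f2* against *Myog*, both as FPKM on log axes, 1 point per library, coloured by group and shaped by replicate. The 3 PPARγ/+_5d libraries and WT_5d replicate 3 share a *Myog* level of 78.8 to 90.3 FPKM, and *E2f2* is 3.67 FPKM in the WT library and 1.54 to 2.19 in the others. Other muscle markers of that WT library are not matched to theirs.

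*E2f1* (ENSMUSG00000027490, chr2:154559407-154569892, minus strand), the best known activator, was highest in WT_0d. Its FPKM there was 11.1, 12.3 and 13.0, against 8.45, 8.92 and 8.51 in WT_5d. PPARγ/+_0d held 9.28, 8.96 and 9.003 FPKM and PPARγ/+_5d held 7.86, 8.54 and 8.69. The WT_0d libraries lay above all 9 others, which stood within 7.86 to 9.28 FPKM. From 0d to 5d the value was −0.49 in WT cells (SE 0.09, adjusted p = 0.00628), with no overlap of the days but short of 2-fold. In PPARγ/+ cells it was −0.12 (95% interval −0.27 to 0.03, adjusted p = 0.157), and 0.01 or 0.03 after median-ratio scaling or quantile normalization. Between the kinds of cell the difference was −0.41 on 0d (SE 0.07, adjusted p = 0.00933) and −0.05 on 5d (95% interval −0.21 to 0.11).

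*E2f3* (ENSMUSG00000016477, chr13:29906575-29986063, minus strand), the third activator, followed the same order. The WT_0d libraries held 6.28, 6.37 and 6.52 FPKM and the WT_5d libraries 4.68, 4.24 and 4.002. In PPARγ/+ cells it stood at 4.91, 4.67 and 4.94 FPKM on 0d and at 4.52, 3.90 and 4.50 on 5d. WT_0d again lay above the other 9 libraries. WT cells gave a log2 fold change of −0.56 (SE 0.09, adjusted p = 0.00512) and PPARγ/+ cells one of −0.17 (95% interval −0.37 to 0.03). On 0d PPARγ/+ cells differed from WT cells by −0.39 (SE 0.09, adjusted p = 0.0239), and on 5d the interval was −0.19 to 0.19. None of these reached 2-fold.

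*E2f4* (ENSMUSG00000014859, chr8:105297663-105305370, plus strand), the main E2F of resting cells, was the most abundant of the E2F transcripts per length, also over the annotated lengths. Its FPKM was 27.6, 27.7 and 27.7 in WT_0d, 29.2, 27.7 and 22.3 in WT_5d, 22.0, 23.0 and 21.9 in PPARγ/+_0d and 19.6, 21.8 and 22.4 in PPARγ/+_5d. From 0d to 5d it gave −0.07 on the log2 scale in both WT cells (95% interval −0.34 to 0.19) and PPARγ/+ cells (−0.22 to 0.08), values that took the opposite sign (0.05 to 0.09) after median-ratio scaling or quantile normalization. The median of all genes stood at −0.08 (WT) and −0.10 (PPARγ/+), and 0.03 and 0.02 after median-ratio scaling. Between the kinds of cell it was lower in PPARγ/+ cells by a log2 value of −0.31 on each day. The libraries did not overlap on 0d (adjusted p = 0.0781) and did on 5d, where WT_5d replicate 3 lay within the PPARγ/+ range (adjusted p = 0.142), so neither passed the threshold. Without that library the 5d value was −0.42 (adjusted p = 0.0035), short of 2-fold.

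*E2f5* (ENSMUSG00000027552, chr3:14578641-14606309, plus strand), the other repressor that works with pocket proteins, stood at 11.3, 11.4 and 12.4 FPKM in WT_0d and at 8.72, 11.1 and 13.5 in WT_5d. PPARγ/+_0d held 16.2, 13.0 and 14.4 FPKM and PPARγ/+_5d held 13.4, 13.5 and 12.7. The WT_5d libraries were the most spread, and WT_5d replicate 3, the highest of them, was the one WT library inside the PPARγ/+ range. From 0d to 5d the values were −0.09 in WT cells (95% interval −0.48 to 0.29) and −0.13 in PPARγ/+ cells (−0.34 to 0.08), and both turned slightly positive after median-ratio scaling or quantile normalization (0.001 to 0.04). Between the kinds of cell it gave 0.31 on 0d (adjusted p = 0.216) and 0.27 on 5d (95% interval −0.03 to 0.57). Without WT_5d replicate 3 the latter was 0.42 (adjusted p = 0.0398), short of 2-fold. A stretch of 26 exonic bases is shared with *1810022K09Rik* on the other strand.

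*E2f6* (ENSMUSG00000057469, chr12:16810963-16839742, plus strand), the Polycomb-linked repressor, was lower on 5d in both kinds of cell without reaching 2-fold. WT_0d held 15.1, 13.2 and 13.6 FPKM and WT_5d held 11.4, 11.6 and 11.4. PPARγ/+_0d held 15.5, 13.5 and 14.8 FPKM and PPARγ/+_5d held 10.2, 10.5 and 9.74. No 5d library reached any 0d library. On the log2 scale WT cells gave −0.28 (SE 0.08, adjusted p = 0.0327) and PPARγ/+ cells −0.52 (SE 0.07, adjusted p = 0.00114). The 5d libraries of PPARγ/+ cells also lay under those of WT cells, by −0.18 on the log2 scale (95% interval −0.34 to −0.02, adjusted p = 0.283).

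**Figure D3:**
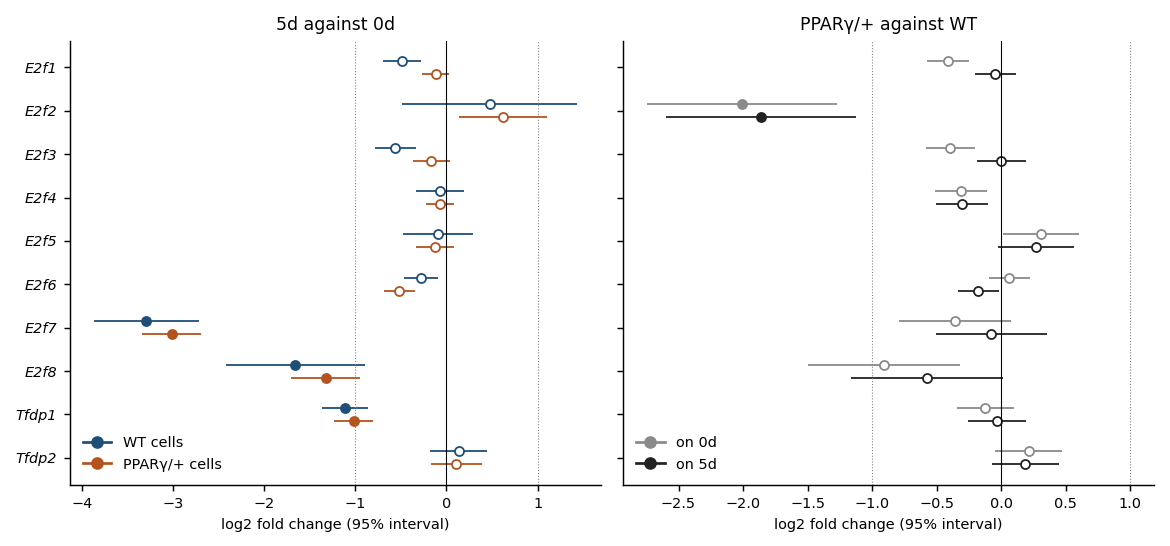
Log2 fold change with its 95% interval (limma) for the 10 genes, from 0d to 5d in each kind of cell on the left and PPARγ/+ against WT cells on each day on the right. Filled points passed the call and dotted lines mark 2-fold. *E2f7*, *E2f8* and *Tfdp1* are filled on the left in both kinds of cell, and only *E2f2* is filled on the right.

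Whether the change from 0d to 5d itself differed between the kinds of cell was tested as an interaction, fitted over the 12 libraries. By limma 0 of the 10 members passed an adjusted p of 0.05, against 0.76% of all genes tested. An unadjusted p under 0.05, for which no share of all genes is given here, was reached by 3 members. These were *E2f1* (0.37, SE 0.10, adjusted p = 0.16), *E2f3* (0.39, SE 0.12, adjusted p = 0.204) and *E2f6* (−0.24, SE 0.10, adjusted p = 0.383), where a positive value means a smaller fall in PPARγ/+ cells. For the genes that fell in both, the interval of the difference was −0.33 to 0.89 for *E2f7*, −0.50 to 1.16 for *E2f8* and −0.22 to 0.41 for *Tfdp1*. Differences within these intervals could not be told from 0 at this spread. The widest interval was that of *E2f2* (−0.90 to 1.19). For *E2f8* the other between-cell values were −0.91 on 0d (95% interval −1.49 to −0.32, adjusted p = 0.0758, no overlap of the libraries) and −0.57 on 5d (−1.16 to 0.02, adjusted p = 0.34). Without WT_5d replicate 3 the latter was −0.92 (adjusted p = 0.0126), again short of 2-fold. *E2f7* gave −0.36 on 0d (−0.79 to 0.08) and −0.08 on 5d (−0.51 to 0.36), and *Tfdp1* −0.12 (−0.35 to 0.10) and −0.03 (−0.25 to 0.19).

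The make-up of the family shifted with these changes. The summed FPKM of *E2f1* to *E2f8* was 93.3 ± 3.98 in WT_0d (SD, n = 3) and 73.6 ± 6.84 in WT_5d, and 76.5 ± 4.24 in PPARγ/+_0d and 61.8 ± 1.68 in PPARγ/+_5d. The atypical repressors *E2f7* and *E2f8* took 17.4% ± 2.44 of this sum in WT_0d and 5.32% ± 1.56 in WT_5d, and went from 13.0% ± 1.44 to 4.26% ± 0.159 in PPARγ/+ cells. *E2f4* and *E2f5* together went from 42.2% ± 1.44 to 51.2% ± 2.93 in WT cells and from 48.2% ± 1.41 to 55.8% ± 0.677 in PPARγ/+ cells. The activators *E2f1* to *E2f3* made up 25.3% ± 0.993 and 27.8% ± 2.81 on the 2 days in WT cells, where the share of WT_5d replicate 3 (24.6%) lay under those of the other libraries of that group (29.3% and 29.6%). In PPARγ/+ cells they made up 19.8% ± 0.379 and 23.5% ± 0.344. The share of *E2f2* alone was 5.48% ± 1.17 in WT_0d and 1.56% ± 0.274 in PPARγ/+_0d. These shares are given as a description, since a share rises when another falls. Over the annotated lengths *E2f7* and *E2f8* took 20.5% ± 2.59 and 6.35% ± 1.84 in WT cells and 15.7% ± 1.68 and 5.12% ± 0.185 in PPARγ/+ cells.

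**Figure D4:**
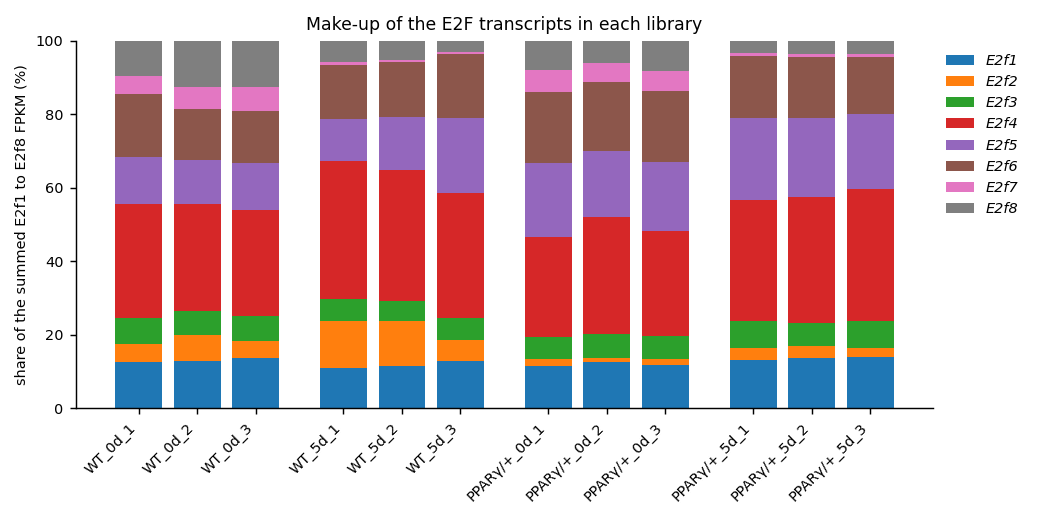
Share of each E2F gene (%) in the summed FPKM of *E2f1* to *E2f8*, 1 stacked bar per library. The bars of *E2f7* and *E2f8* shrink from 11.4% to 19.0% of the sum on 0d to 3.56% to 6.56% on 5d, and that of *E2f2* is narrow in the 6 PPARγ/+ libraries.

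By FPKM as deposited, *Tfdp1* was the highest member in all 4 groups, *E2f4* the second, and neither overlapped its lower neighbour in the order. In WT_0d the order went on with *E2f6*, *E2f1*, *E2f5*, *E2f8*, *E2f3*, *E2f7*, *E2f2* and *Tfdp2*, where *E2f1*, *E2f5* and *E2f8* overlapped as neighbours and so did *E2f7* and *E2f2*. *E2f7* was the lowest member in both 5d groups, and its libraries did not overlap the next gene. *E2f2* was the lowest in PPARγ/+_0d at 1.20 ± 0.275 FPKM, without overlap with *Tfdp2*. The FPKM of 4 members rest on transcript lengths, inferred from the step between values, that are shorter than the summed exons of the annotation. These were 1700 against 3670 bases for *Tfdp1*, 2421 against 5663 for *E2f6*, 1992 against 2452 for *E2f4* and 4794 against 5429 for *E2f3*. Over the annotated lengths *Tfdp1* stood at 47.0 and *E2f4* at 22.5 FPKM in WT_0d, but in WT_5d they overlapped, with *Tfdp1* between 20.6 and 22.3 and *E2f4* between 18.2 and 23.8. *E2f6* came to 5.97 FPKM in WT_0d and moved from the third to the sixth place. The order of these genes depends on the length used. Rescaling by length cannot alter the changes within a gene, and fragments were not recounted over another gene model.

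The genes around the E2F factors were followed in 7 lists, which share a few genes such as *Ccne1* and *Foxm1*. Of 30 G2/M genes held by the DREAM complex, MYBL2 and FOXM1, 30 fell in WT cells and 30 in PPARγ/+ cells, with median log2 fold changes of −3.45 and −3.58 against medians of −0.08 and −0.10 over all genes. *Ccnb1*, the mitotic cyclin B1, fell in both (log2 fold changes −3.98 and −3.96), as did *Cdc20*, an activator of the anaphase-promoting complex (−3.96 and −4.08). Of 52 E2F targets of the G1/S transition and DNA synthesis, 51 fell in WT cells (median −2.09) and 47 in PPARγ/+ cells (median −1.58). *Ccna2*, cyclin A2, fell in both as well (−3.43 and −3.73), and *Mcm5*, a subunit of the replicative helicase, had −2.85 in PPARγ/+ cells. The exceptions all had values under 0 and missed only 2-fold. Among them were *Gins3* in both kinds of cell (−0.79 and −0.82), and *Cdc25a* and *Gins4* in PPARγ/+ cells (−0.59 and −0.90), named after their values were seen. Without WT_5d replicate 3 the WT counts were 30 and 50. By the same call 7.53% of all genes tested fell in WT cells and 6.06% in PPARγ/+ cells.

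Between the kinds of cell, 2 of the 52 G1/S targets were called lower in PPARγ/+ cells on 0d and 0 on 5d by limma. The shares of all genes called lower were 1.39% on 0d and 0.533% on 5d, and 0.76% were called for the interaction. An unadjusted p of at most 0.05 alone was reached by 36 of the 52 on 0d, 3 on 5d and 22 for the interaction. The shares of all genes at that p are not given here, so these counts have no yardstick. The 2 called on 0d were *Ccne1*, the cyclin E1 that starts S phase (−1.04, SE 0.24, adjusted p = 0.0287), and *Cdc6*, a loader of the helicase (−1.03, SE 0.20, adjusted p = 0.0146). *Cdc6* stood at 4.34, 5.10 and 7.10 FPKM in WT_0d and at 3.34, 2.22 and 2.36 in PPARγ/+_0d. Both lie just past 2-fold, and leaving out PPARγ/+_0d replicate 2, PPARγ/+_0d replicate 3 or WT_0d replicate 3 ended both calls, with values from −0.98 to −0.83. Leaving out WT_0d replicate 2 also ended that of *Ccne1* (−1.08, adjusted p = 0.0721). Of the 52 targets 49 had a value under 0 on 0d (median −0.40), and 25 on 5d (median 0.02). The median over all genes was 0.02 on each day. The interaction was called for *Dut*, which removes dUTP (0.87, SE 0.17, adjusted p = 0.0443), and *Mcm4* (0.91, SE 0.18, adjusted p = 0.0498). Both fell less in PPARγ/+ cells, from a lower level on 0d. Neither call held after median-ratio scaling or quantile normalization of the libraries.

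Of 10 pocket proteins and MuvB components, 5 fell in each kind of cell, beside 7.53% (WT) and 6.06% (PPARγ/+) of all genes. *Mybl2*, whose product activates late cell-cycle genes, had log2 fold changes of −3.51 (WT) and −2.51 (PPARγ/+), and *Foxm1* of −3.27 and −3.31. *Rbl1*, encoding p107, had −1.93 and −1.5, and *Lin9* and *Lin54* were the other 2 that fell. *Rb1*, the retinoblastoma gene, stood at 6.44, 6.60 and 5.44 FPKM in WT_0d and at 12.6, 10.5 and 8.32 in WT_5d (log2 fold change 0.74, adjusted p = 0.0152), short of 2-fold. In PPARγ/+ cells *Rb1* held 6.77, 6.75 and 7.20 FPKM on 0d and 7.50, 7.48 and 7.78 on 5d. *Rbl2*, encoding p130, gave 0.36 (95% interval 0.01 to 0.71) in WT cells and 0.21 (−0.04 to 0.46) in PPARγ/+ cells. The pocket proteins outside the named-gene rule were added after their values were seen.

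Among the cyclins, kinases and inhibitors upstream of the retinoblastoma protein, 13 of 15 genes were tested. In WT cells 2 rose and 7 fell, and in PPARγ/+ cells 1 rose and 5 fell. Of 13 genes, 1 or 2 risen is near the share of all genes that rose (8.94% and 9.11%). The shares of all genes that fell were 7.53% and 6.06%. *Cdkn1a*, encoding the kinase inhibitor p21, rose by 2.27 on the log2 scale in WT cells (SE 0.39, adjusted p = 0.00553) and by 1.06 in PPARγ/+ cells (SE 0.10, adjusted p = 0.000323). In WT_5d it reached 481, 419 and 189 FPKM, with replicate 3 again the lowest, and in PPARγ/+_5d 164, 174 and 162. Without PPARγ/+_0d replicate 1 the PPARγ/+ value was 0.94, short of 2-fold. For *Cdkn1a* the interaction was −1.21 (limma, SE 0.43, adjusted p = 0.272) and not called. Without WT_5d replicate 3 the interaction was called for 3 genes of this list with a value under 0 and 1 above it. *Ccnd3*, the cyclin D3 of differentiating muscle, rose by 1.41 in WT cells (SE 0.34, adjusted p = 0.0197). In PPARγ/+ cells its value was 0.71 (limma, SE 0.10, adjusted p = 0.0012), short of 2-fold but without overlap of the days. The interaction was not called for it (limma, adjusted p = 0.514). The cyclin E genes *Ccne1* (−2.08 in WT and −1.35 in PPARγ/+ cells) and *Ccne2* (−1.80 and −1.40) fell in both, as did the inhibitors *Cdkn2c* (−1.29 and −1.62) and *Cdkn2d* (−1.26 and −1.90).

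Of the 10 partners of E2F6 in the non-canonical Polycomb complex, 0 passed the call on either day comparison by limma, with medians of −0.19 and −0.22. Among all genes 7.53% fell in WT cells and 6.06% in PPARγ/+ cells. An unadjusted p of at most 0.05 alone was reached by 5 of them in WT cells and 6 in PPARγ/+ cells. For that p the shares of all genes are not given here, so nothing is read from these counts. The value farthest from 0 was that of *L3mbtl2* (−0.99 in both, named after its values were seen). Without WT_5d replicate 3, 1 of the 10 was called lower in WT cells. The 5 germline genes that E2F6 silences all lay under the filter. Of 7 tested E2F targets in apoptosis, 1 rose in WT cells and 0 in PPARγ/+ cells, which is near the share of all genes that rose (8.94% and 9.11%). The gene was *Pmaip1*, encoding NOXA (1.36, SE 0.44, unadjusted p = 0.0201, adjusted p = 0.0532), a call that was lost without WT_0d replicate 3 or without replicate 1 or 2 of WT_5d (1.01 to 1.27). Most of the 7 went the other way, with 5 under 0 in WT cells (median −0.42) and 4 in PPARγ/+ cells (median −0.06). In each kind of cell 0 of them were called lower.

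**Figure D5:**
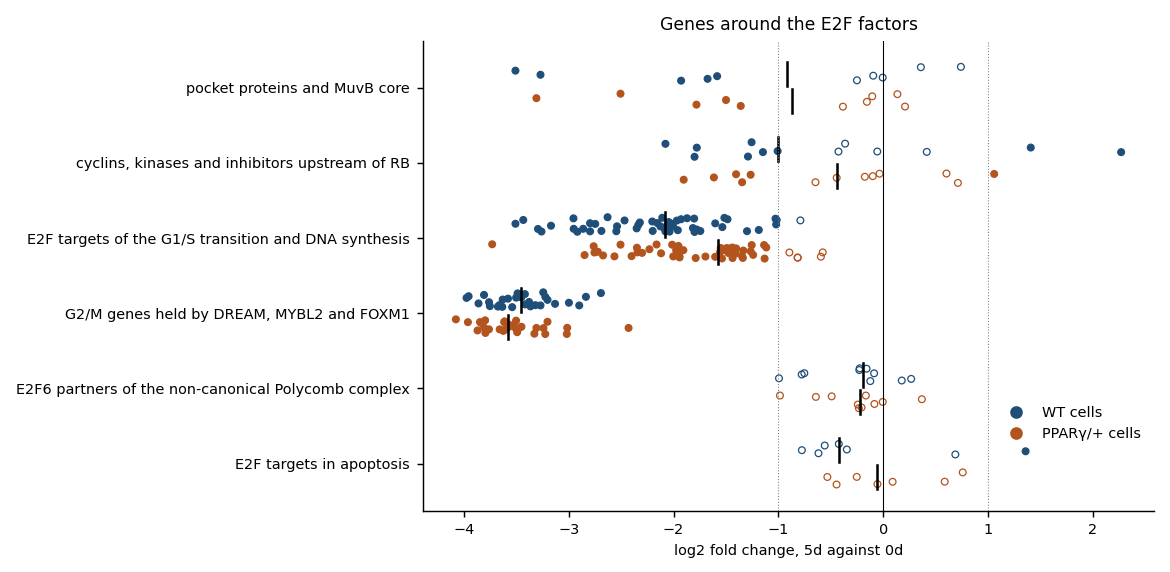
Log2 fold change from 0d to 5d of the tested genes in 6 lists, 1 point per gene, with WT cells above PPARγ/+ cells in each list and points spread vertically only to separate them. Filled points passed the call, black bars are medians and dotted lines mark 2-fold. All 30 G2/M genes are filled in both kinds of cell, and 0 of the 10 E2F6 partners are.

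The genes most like each member were sought by r over the 12 libraries among 11671 tested genes with a mean of at least 1 FPKM, as a description of libraries that share groups and depth. *E2f7* was closest to *Bub1*, *Knl1* and *Tk1* (r of 0.999, 0.998 and 0.998), the first 2 of the kinetochore and the last a thymidine kinase. *Tfdp1* was closest to *Hells* (0.998), *Ppia* and *Dis3*, and *E2f8* to *Cs* (0.983), *Atp5g3* and *Ckap4*. *E2f2* was closest to *Etl4* (0.964), *Sox11* and *Shb*, each lower in all 6 PPARγ/+ libraries than in any WT library. For *E2f1* they were *Sept9*, *Elk3* and *Fhod1*, for *E2f3* *Dcbld2*, *Gm38399* and *Usp6nl*, and for *E2f4* *Dusp14*, *Tubb2a* and *Dot1l*. For *E2f5* they were *Abcb1b*, *Fam149b* and *Crybg1*, for *E2f6* *Mreg*, *8030462N17Rik* and *Gbf1*, and for *Tfdp2* *Zfp229*, *Ulk2* and *Sdccag8*. Within the family the highest r was that of *E2f7* with *Tfdp1* (0.987), followed by *E2f1* with *E2f3* (0.909). The lowest was that of *E2f4* with *E2f5* (−0.79), which both work as repressors with the pocket proteins.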

How the data were processed

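RNA-seq values were taken as deposited. FPKM were made by the authors by trimming with Trim Galore, alignment with STAR, counting with HTSeq against Ensembl release 83 (GRCm38 in the study's methods, mm9 in the submitters' processing notes) and scaling for transcript length and library size. Mapped fragments and transcript lengths were recovered from the steps of low values. Only FPKM were used, a second deposited table on a log2 scale being set aside, and 0 columns of per-sample values were left unmapped. Genes that reached 0.1 FPKM in fewer than 3 libraries were left out, and log2(FPKM + 0.1) was tested with limma 3.58.1 (R 4.3.3, trended empirical Bayes, Benjamini-Hochberg adjustment). Changes between days were fitted within the 6 libraries of a kind of cell, with the study's call (unadjusted p of at most 0.05 and 2-fold). Differences between kinds of cell and the interaction were fitted over 12 libraries, with an adjusted p of at most 0.05, and 2-fold for the former. The script was tested on simulated data. Plots were drawn with matplotlib 3.10.9 and other summaries made with pandas 2.3.3 in Python 3.11.15.

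The members and the 7 lists were chosen with earlier results of these data known. The named genes were the 10 members, up to 2 called genes at either end of each list and comparison (with libraries that did not overlap for comparisons between groups), the 3 genes most like each member, and *Pparg*. Alternatives changed the pseudocount, filter, scaling, call, fit and libraries. Replicate numbers did not pair the libraries.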

Additional observations from a re-analysis of the deposited data

Results flagged for a closer look

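For 2 genes of the G1/S list the course from 0d to 5d was unequal in WT and PPARγ/+ cells by the test of that difference itself (limma interaction). The interaction was 0.87 on the log2 scale for *Dut* (SE 0.17, adjusted p = 0.0443). *Dut* stood at 17.8 ± 1.51 FPKM in WT_0d and 4.34 ± 0.229 in WT_5d, and at 10.9 ± 1.52 in PPARγ/+_0d and 4.91 ± 0.598 in PPARγ/+_5d (SD, n = 3). For *Mcm4* the interaction was 0.91 (SE 0.18, adjusted p = 0.0498), with 38.1 ± 5.30 and 8.44 ± 0.587 FPKM in WT cells and 23.8 ± 4.18 and 9.93 ± 0.462 in PPARγ/+ cells. Over the alternatives the adjusted p ranged from 0.0274 to 0.131 for *Dut* and from 0.0272 to 0.145 for *Mcm4*, and the value was above 0 in each. Both calls were lost with median-ratio scaling (limma, adjusted p = 0.076 and 0.0818), quantile normalization (0.0616 and 0.0597) and no filter (0.0611 and 0.0736). They were also lost with the replicate number as a block and in most fits that left out a library.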

How the results depend on the processing

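Of 890 values of the 10 members recomputed under other settings, 846 kept their direction and their side of the call, 10 lost the call and 34 changed sign. Of 403 values of other named genes, 357 kept both and 46 lost the call. The numbers of genes called moved with several settings. With a pseudocount of 1 they were 1441 in WT cells (2970 as reported), 1241 in PPARγ/+ cells (2735), 120 on 0d (353) and 95 on 5d (199). A filter at 1 FPKM gave 1806 in PPARγ/+ cells and 93 on 5d, and a fit of only the 6 libraries of 5d gave 28, with 0 members called in place of 1. Leaving out 1 library gave 2765 to 3057 genes in WT cells, 2535 to 2829 in PPARγ/+ cells, 180 to 491 on 0d, 78 to 796 on 5d and 42 to 527 for the interaction (137 as reported), where the highest of the last 2 ranges came without WT_5d replicate 3. Members called were then 2 to 3 in PPARγ/+ cells and 0 to 1 on 5d. The causes were not tested.

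The sign changes were all in values that were not called. After median-ratio scaling or quantile normalization the change to 5d was 0.012 or 0.030 for *E2f1* in PPARγ/+ cells, 0.062 or 0.092 for *E2f4* in PPARγ/+ cells and 0.056 or 0.052 in WT cells, and 0.0013 or 0.015 for *E2f5* in PPARγ/+ cells and 0.037 or 0.043 in WT cells. The interaction of *E2f2* was −0.033 with a pseudocount of 1 and −0.027 with quantile normalization, and *E2f3* on 5d gave 9.72e-06 with a pseudocount of 1. Leaving out 1 library moved the interaction between −0.31 and 0.38 for *E2f2*, −0.11 and 0.082 for *E2f4*, −0.20 and 0.11 for *E2f5*, −0.018 and 0.54 for *E2f8* and −0.12 and 0.035 for *Tfdp2*. It moved the WT change between −0.15 and 0.041 for *E2f4* and −0.24 and 0.069 for *E2f5*, and the difference on 5d between −0.050 and 0.068 for *E2f3* and −0.25 and 0.13 for *E2f7*.

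*Ccne1* and *Cdc6* on 0d fell short of 2-fold with a pseudocount of 1 (−0.90 and −0.83). The replicate number as a block left 61 genes called for the interaction and took *Ccne1* on 0d to an adjusted p of 0.0512, *Dut* to 0.0965 and *Mcm4* to 0.0847. It changed no call of a member. Same-numbered libraries did not deviate together (r of −0.068 to 0.083 over 18 pairs, against −0.122 to 0.102 for other pairs), and 4 of 12 libraries correlated best with one of their own number. With 3 libraries a group and 70 to 149 fragments behind *E2f7* on 5d, small differences there are beyond the reach of these data.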
